A study of Mus musculus with 8 samples.

Results

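Natural killer (NK) cells and cytotoxic T cells were followed in mouse lung through 9 genes that are characteristic of them: Gzma, Gzmb, Prf1, Nkg7, Ncr1, Klrb1c, Klrd1, Klrk1 and Eomes. The genes were taken by symbol from the annotation of the arrays, which carried probes for 20920 named genes in all. Of these 9 genes, 3 had a second probe, so that 12 probes of 41174 on the array were members, and all 12 passed the filter for testing. Where a gene had more than a single probe, its value is that of the brighter one.

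The study compared untreated lungs of 4 wild-type and 4 Scgb3a2-transgenic male C57BL/6 mice. The arrays served to look into the response of transgenic mice to bleomycin, a drug that injures the lung, by the state of lungs that had received no treatment. SCGB3A2 is a protein secreted in the airways. Age was given as 8 to 10 weeks in the sample labels and as approximately 8 weeks in the methods. Each transgenic mouse carried mouse Scgb3a2 cDNA under the promoter of the human surfactant protein C gene, which drives expression in alveolar type II cells, and the line came from a single founder. RNA of each whole lung was labeled with Cy5 and hybridized to an Agilent two-color array together with a Cy3-labeled pool of RNA, which according to the methods held equal amounts from each sample. No array had the dyes swapped. All values below are log2 ratios of a lung over this pool, so that 1 unit is a doubling.

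NK cells and cytotoxic T cells kill by releasing granules. Perforin, made from Prf1, opens the way through the membrane of the target cell, and granzymes, which are serine proteases encoded by Gzma and Gzmb among others, enter through it and start cell death. Whether an NK cell releases its granules is decided by the balance of activating and inhibitory receptors, and T-box transcription factors such as Eomes keep the cell able to do so. The lung holds many circulating NK cells in its blood vessels.

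The stretches around the start sites of these genes show what their control regions share and where they differ. RefSeq promoters (assembly GRCm38.p6, 250 bases before to 50 after the start) were at hand for 8 of the 9 genes, and 4 are printed, chosen after the expression values were seen: Gzmb and Prf1 as effectors, Nkg7 because its level ran with that of Prf1, and Eomes because its r with Prf1 and Nkg7 was negative. Capitals mark letters searched on both strands: TGTGGT or its reverse ACCACA, the core bound by Runx factors, GGTGTGA or TCACACC, the T-box core, and GGAAGT or ACTTCC, an Ets core. The Gzmb promoter is chr14:56262285-56262584 on the minus strand, that of Prf1 chr10:61297586-61297885 on the plus strand, that of Nkg7 chr7:43436888-43437187 on the plus strand and that of Eomes chr9:118477939-118478238 on the plus strand.
Gzmb: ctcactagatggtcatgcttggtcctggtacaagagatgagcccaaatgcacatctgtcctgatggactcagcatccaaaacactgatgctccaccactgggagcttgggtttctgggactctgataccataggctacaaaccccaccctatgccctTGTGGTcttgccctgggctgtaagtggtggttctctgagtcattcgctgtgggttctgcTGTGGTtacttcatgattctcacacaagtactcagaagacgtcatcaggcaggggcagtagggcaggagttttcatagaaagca
Prf1: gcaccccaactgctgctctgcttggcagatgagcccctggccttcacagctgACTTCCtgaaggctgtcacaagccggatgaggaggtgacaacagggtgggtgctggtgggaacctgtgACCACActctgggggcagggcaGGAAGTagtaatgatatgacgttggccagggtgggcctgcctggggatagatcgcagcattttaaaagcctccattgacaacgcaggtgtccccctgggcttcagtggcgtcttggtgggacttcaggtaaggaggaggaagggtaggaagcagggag
Nkg7: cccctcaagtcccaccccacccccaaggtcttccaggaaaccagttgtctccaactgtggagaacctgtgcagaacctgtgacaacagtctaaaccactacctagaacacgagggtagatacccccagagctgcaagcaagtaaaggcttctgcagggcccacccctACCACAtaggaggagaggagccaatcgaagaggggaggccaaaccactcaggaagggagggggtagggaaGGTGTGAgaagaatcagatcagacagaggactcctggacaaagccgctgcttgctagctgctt
Eomes: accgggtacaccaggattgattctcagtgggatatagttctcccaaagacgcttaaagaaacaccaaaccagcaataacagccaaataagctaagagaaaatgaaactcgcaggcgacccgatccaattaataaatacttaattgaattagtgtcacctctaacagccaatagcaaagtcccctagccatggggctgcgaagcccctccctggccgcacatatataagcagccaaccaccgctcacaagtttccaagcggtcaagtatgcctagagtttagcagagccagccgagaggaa
The Runx core stood in 7 of the 8 promoters (Gzma, Gzmb, Prf1, Nkg7, Ncr1, Klrb1c and Klrk1), against 16.8% of all 32851 promoters in the RefSeq table. Gzmb held it at -93 and at -34, Prf1 at -130 and Nkg7 at -83, counted from the start site to the leftmost base. The T-box core stood in 1 of the 8, that of Nkg7 at -13, against 3.98% of all promoters. The Ets core stood in 2, those of Prf1 and Klrb1c, against 23.8%. In the Eomes window none of these letters occurred. The matches are a description of sequence, not of binding.

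The 8 arrays had a median sample signal of 204 to 277.5 per spot over a local background of 55.5 to 59, and 32271 to 34720 probes were well above background. No spot was saturated, and with 4 arrays per genotype only large differences can pass an adjusted threshold. Each of the 4 slides held 1 wild-type and 1 transgenic lung, and the slides were scanned on 2 days. Scgb3a2, the gene of the transgene, was 0.88 higher in transgenic lungs (standard error 0.24; unadjusted p = 0.0033 by limma; exact two-sided permutation p = 0.0571). Even this gene did not pass an adjusted p of 0.05 by limma. Its genotypes overlapped, the highest wild-type lung reading 0.58 and the lowest transgenic lung 0.47. A permutation of 4 against 4 cannot give less than 0.0286. The labels do not say whether the mice came from separate litters, so p-values measure the spread between these mice alone. In RNA of whole lung, fewer cells of a type and less RNA per cell cannot be told apart.

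All 4 genes of the cytotoxic granule, Gzma, Gzmb, Prf1 and Nkg7, had higher means in transgenic than in wild-type lungs, but in none did the difference exceed the spread between mice. Gzma, a tryptase among the granzymes, read 0.32, -0.02, -0.02 and 0.79 in wild-type replicates 1 to 4 and 0.16, 0.64, 0.30 and 1.08 in transgenic replicates 1 to 4. Its highest lungs were transgenic replicate 4 and wild-type replicate 4, and the genotypes overlapped widely. The means were 0.27 ± 0.38 (SD, n = 4) and 0.55 ± 0.41 (SD, n = 4), a difference of 0.27 with a 95% interval of -0.21 to 0.76 (unadjusted p = 0.241 by limma). Gzma was 1.097 higher in the transgenic than in the wild-type lung on slide 1 and 0.66 on slide 3, and lower by 0.16 on slide 2 and by 0.49 on slide 4. Without slide 1 its genotype difference was 0.00063, a setting added after the data had been seen, and with the deposited ratios it was 0.70. The difference was 0.096 without transgenic replicate 4, 0.18 without wild-type replicate 2 and 0.45 without wild-type replicate 4.

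Gzmb, the granzyme that cleaves caspases, read -0.06, -0.32, -0.16 and 0.30 in the wild-type lungs and 0.00, 0.23, 0.43 and 0.03 in the transgenic lungs. Its probe was dim, with a sample signal of 77.5 to 118 over a local background of 53 to 62. The transgenic lungs lay at or above the pool, whereas 3 of 4 wild-type lungs lay below it, yet wild-type replicate 4 exceeded 3 of the 4 transgenic lungs. The difference was 0.23 (95% interval -0.09 to 0.55, unadjusted p = 0.144 by limma), and the transgenic lung was the higher on 4 of 4 slides, by 0.06 to 0.55. Its standard error was 0.15, and 0.11 with the slide as a block (unadjusted p = 0.0638 by limma). The Gzmb difference was 0.51 with the deposited ratios, 0.53 with normexp offset 0 and 0.10 with feature outlier flags alone. Leaving out wild-type replicate 2 gave 0.14, leaving out transgenic replicate 3 gave 0.15, and leaving out wild-type replicate 4 gave 0.35 (unadjusted p = 0.0269 by limma).

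Prf1, the pore-forming protein, read -0.01, 0.15, -0.24 and 0.69 in wild-type and 1.25, 0.54, 0.02 and 0.13 in transgenic lungs. Transgenic replicate 1 stood highest of the 8 lungs and wild-type replicate 4 came next, the lungs that were also highest in neutrophil markers. The difference of 0.34 (95% interval -0.24 to 0.91, unadjusted p = 0.225 by limma) was 0.08 without transgenic replicate 1.

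Nkg7, a membrane protein of the cytotoxic granule, read 0.02, -0.07, -0.73 and 0.98 in wild-type and 0.69, 0.49, 0.25 and 0.49 in transgenic lungs. The wild-type lungs held both the lowest and the highest value, with an SD of 0.70 against 0.18 in transgenic lungs (n = 4 each). Its difference, 0.43 with a 95% interval of -0.18 to 1.04 (unadjusted p = 0.148 by limma), was the largest among the 9 genes under this processing, whereas Gzma was larger with the deposited ratios (0.70 against 0.43 for Nkg7). The value of Nkg7 turned on the extreme wild-type lungs, since it was 0.17 without wild-type replicate 3 and 0.74 without wild-type replicate 4. The second Nkg7 probe gave 0.37 (95% interval -0.15 to 0.88), and the probes ran together across lungs with r = 0.94.

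**Figure D1:**
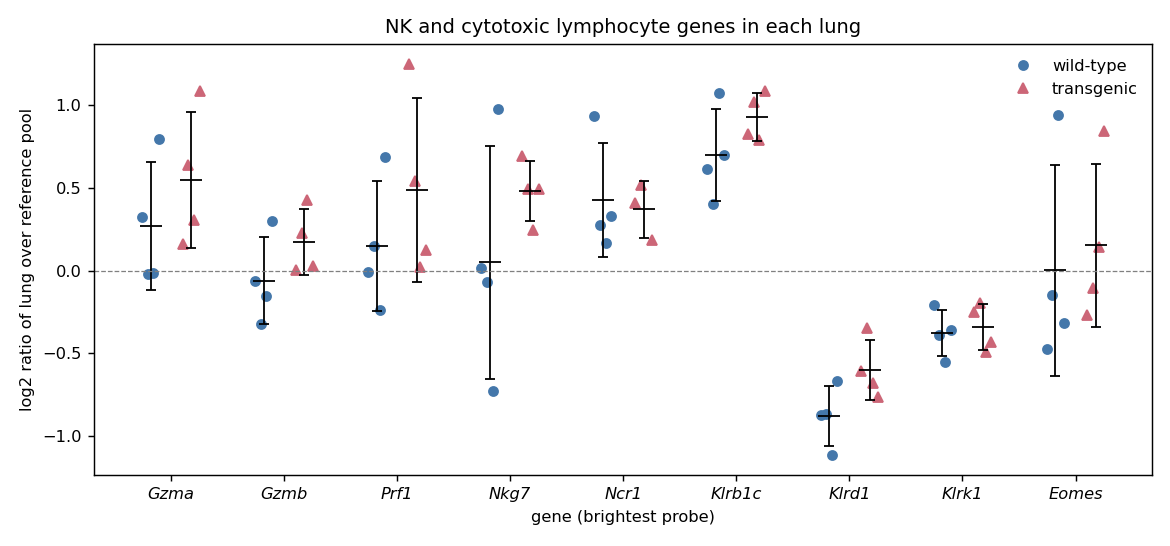
Log2 ratio of each lung over the reference pool (vertical axis) for the 9 genes by their brighter probe (horizontal axis). Circles are wild-type and triangles transgenic lungs, 1 point per lung, and the bars give mean and SD with n = 4 (n = 3 for Ncr1 in transgenic lungs). In every gene the ranges of the genotypes overlap, and Nkg7 in wild-type lungs spans -0.73 to 0.98.

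Among the receptor genes 3 had higher means in transgenic lungs and Ncr1 had a lower one. Ncr1, which encodes the activating receptor NKp46 of NK cells and some innate lymphoid cells, read 0.93, 0.28, 0.17 and 0.33 in wild-type lungs and 0.41, 0.52 and 0.18 in transgenic replicates 1, 2 and 4. Its spot on transgenic replicate 3 carried an outlier flag and was left out. The ratio of wild-type replicate 1 came from a lung signal of 342 over a pool signal of 139. In wild-type replicate 3 these signals were 628 and 682. Ncr1 was the only gene of the 9 with a lower mean in transgenic lungs, by 0.06 (95% interval of the difference -0.46 to 0.34, unadjusted p = 0.757 by limma), and the sign was not stable, the difference being 0.11 without wild-type replicate 1 and 0.035 without transgenic replicate 4, whereas it was -0.17 with the flagged spot kept, -0.13 with Agilent processed signals and -0.22 with the deposited ratios.

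Klrb1c encodes NK1.1, the surface marker by which NK cells are recognized in C57BL/6 mice. It read 0.61, 0.40, 1.07 and 0.70 in wild-type and 0.82, 1.01, 0.79 and 1.09 in transgenic lungs. Only wild-type replicate 3 lay within the transgenic range, and the transgenic lung was the higher on 4 of 4 slides. The difference was 0.23 (95% interval -0.08 to 0.54, unadjusted p = 0.131 by limma), and it was 0.13 without wild-type replicate 2 and 0.36 without wild-type replicate 3. Its standard error was 0.14, and 0.12 with the slide as a block (unadjusted p = 0.0809 by limma). A second Klrb1c probe varied far less, with all 8 lungs between 0.36 and 0.58, and gave a difference of 0.09 (95% interval -0.11 to 0.29). Across lungs these probes had r = 0.24 (exact permutation p = 0.57), and the reading of Klrb1c therefore depends on the probe chosen.

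Klrd1 encodes CD94, which pairs with NKG2 proteins to form receptors for nonclassical MHC class I. It read -0.87, -0.86, -1.11 and -0.67 in wild-type and -0.60, -0.35, -0.68 and -0.76 in transgenic lungs. Transgenic replicates 1 and 2 lay above every wild-type lung, and the other two transgenic lungs lay within the wild-type range. Its difference was 0.28, a 1.21-fold higher level, with a 95% interval of 0.00 to 0.56 and an unadjusted p of 0.0487 (adjusted p = 1.00 by limma; exact two-sided permutation p = 0.0857). On slides 1 to 3 the transgenic lung was the higher by 0.26 to 0.51, and on slide 4 it was lower by 0.01. With the slide as a block the unadjusted p was 0.0316 by limma, where 3.72% of all probes in that fit lay under 0.05. It lay under 0.05 in 5 of the 18 other settings run apart from leaving out single lungs, and with feature outlier flags alone, a narrower rule for leaving out spots that was used first, the difference was 0.15 (unadjusted p = 0.499 by limma).

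Klrk1 encodes NKG2D, an activating receptor for stress-induced ligands. It read -0.21, -0.39, -0.55 and -0.36 in wild-type and -0.25, -0.19, -0.49 and -0.43 in transgenic lungs, the narrowest spread of the 9 genes by their brighter probes. This probe was near the background, with a sample signal of 99 to 133 over a local background of 53 to 62. The offset narrows the ratios of such a probe. The standard error of the genotype difference was 0.11, and 0.17 with normexp offset 0. The difference was 0.04 (95% interval -0.21 to 0.28, unadjusted p = 0.751 by limma), which on the fold scale is an interval of 0.865 to 1.22. The second Klrk1 probe was dimmer, well above background on 5 of 8 arrays, and gave 0.09 (95% interval -0.18 to 0.35).

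Eomes, the T-box factor of NK cells and memory T cells, read -0.47, -0.15, 0.94 and -0.31 in wild-type and -0.27, -0.11, 0.14 and 0.84 in transgenic lungs. In ratio, a single lung of each genotype stood apart, wild-type replicate 3 and transgenic replicate 4. These were the pair hybridized to slide 1. In raw signal wild-type replicate 3 read 246 against a pool of 114, whereas wild-type replicate 1 read 298 against a pool of 346. Transgenic replicate 4 read 468 against a pool of 214. The part of the pool channel in these ratios was not tested. The genotype difference was 0.15 (95% interval -0.52 to 0.82, unadjusted p = 0.629 by limma). Its sign was not stable, the difference being -0.078 without transgenic replicate 4 and -0.0061 without wild-type replicate 1. Without wild-type replicate 3 it was 0.46. Within slides the lungs were closer, the transgenic minus wild-type difference being -0.09, 0.21, 0.04 and 0.46 on slides 1 to 4, and with the slide as a block the standard error was 0.11 in place of 0.31 (unadjusted p = 0.21 by limma). The part of the slide in the Eomes values was not tested.

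Over the 9 genes, 8 had the higher mean in transgenic lungs, where 50.4% of all 32653 tested probes did, and the median difference was 0.23 against 0.00099 over all probes. The median of the 9 genes was 0.13 with feature outlier flags alone, 0.14 without wild-type replicate 2 and 0.35 without wild-type replicate 4. Because the genes are expressed by the same cells and were measured in the same lungs, they do not count as 9 separate observations. With limma 0 of the 9 genes passed an adjusted p of 0.05 (0% of all tested probes), and 1, Klrd1, had an unadjusted p under 0.05 (2.09% of all tested probes in either direction, 1.12% in this one). The methods' t-test gave 0 at either threshold. In 0 of the 9 genes did all transgenic lungs lie on one side of all wild-type lungs (1.98% of all tested probes). The count at an unadjusted p under 0.05 was 3 without wild-type replicate 4 (Gzmb, Nkg7 and Klrd1), where the number over all probes also rose, from 684 to 1170, and 0 without wild-type replicate 1 or 2 or transgenic replicate 1, 2 or 3. Without wild-type replicate 3 the count was 1 but the gene was Klrb1c (difference 0.36, unadjusted p = 0.0153 by limma), whereas Klrd1 had an unadjusted p of 0.141 by limma. Without slide 1 the gene was again Klrb1c (0.30, unadjusted p = 0.0408 by limma), and Klrd1 had an unadjusted p of 0.0807 by limma. Over the 18 other settings run apart from single lungs, Prf1 ranged from 0.11 to 0.45, Klrb1c from 0.013 to 0.30 and Eomes from 0.031 to 0.23.

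**Figure D2:**
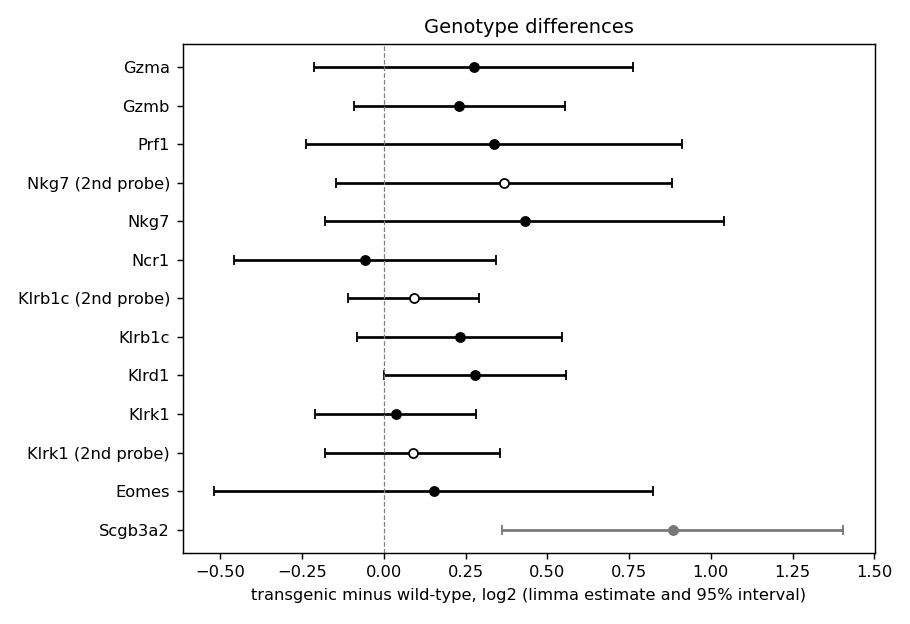
Transgenic minus wild-type difference in log2 ratio (horizontal axis) for the 12 probes of the 9 genes and for Scgb3a2 (vertical axis), with 95% intervals from limma. Filled points are the brighter probe of a gene and open points its second probe. The interval of Klrd1 begins at 0.00, those of the other 8 genes include 0, and that of Scgb3a2 runs from 0.36 to 1.41.

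The genes did not move in step on every slide. On slide 4 Gzma, Prf1 and Nkg7 were lower in the transgenic lung, by 0.49, 0.66 and 0.73, whereas on slide 3 they were higher by 0.66, 0.39 and 0.56. By scan day, 8 of 9 genes were higher in the transgenic lungs of day 1 and 7 of 9 in those of day 2. Prf1 differed by 0.81 on day 1 and by -0.14 on day 2, and Nkg7 by 0.95 and by -0.08. Klrd1 differed by 0.31 and 0.25. With the scan day as a block, 8 genes had the higher mean and 1 an unadjusted p under 0.05 by limma (2.43% of all probes in that fit).

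**Figure D3:**
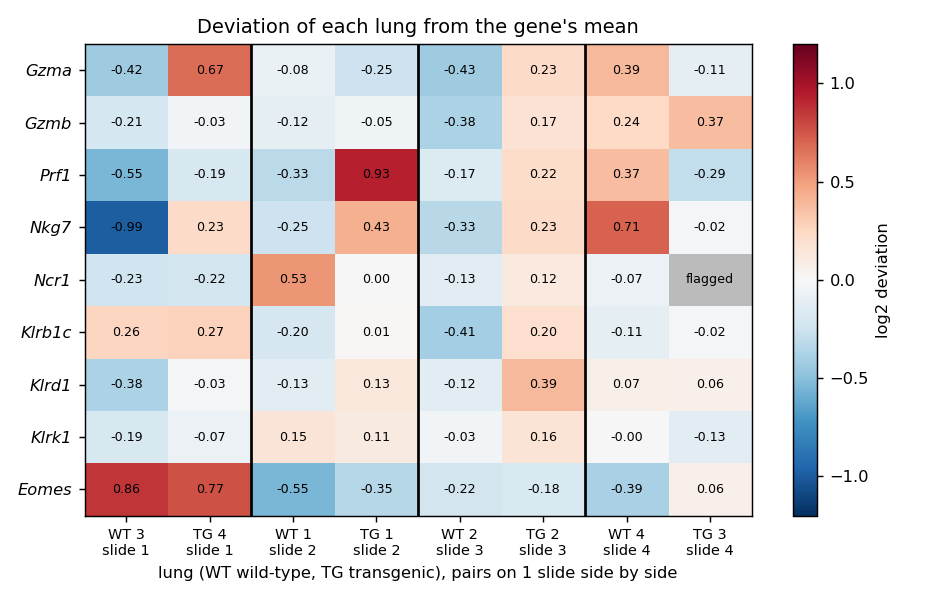
Deviation of each lung's log2 ratio from the mean of the gene over all lungs (color and printed value), with genes in rows and lungs in columns, the wild-type (WT) and transgenic (TG) lung of a slide side by side. Eomes stands high in both lungs of slide 1, and transgenic replicate 2 lies above the mean in 8 of 9 genes.

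The genes differed in how much their ratios varied over the 8 lungs. The SD over the 8 lungs was 0.53 for Eomes, 0.53 for Nkg7, 0.48 for Prf1 and 0.40 for Gzma, which placed these genes at the 99.1, 99.0, 98.6 and 96.9 percentile of all tested probes. Klrk1, whose probe was near the background, lay at the other end with an SD of 0.13, at the 25.1 percentile. The median SD was 0.26 over the 9 genes and 0.18 over all tested probes. Within genotypes Eomes, Nkg7, Prf1 and Gzma kept percentiles of 96.4 to 99.2, so their spread lay between lungs of the same genotype. Those lungs lay on different slides, and the highest Eomes values, 0.94 and 0.84, were the pair of slide 1. Variation between mice and between slides was not told apart in these SDs.

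Single lungs stood out over several genes. Wild-type replicate 3 held the lowest value of 5 of the 9 genes (Prf1, Nkg7, Ncr1, Klrd1 and Klrk1) and the highest of Eomes. Transgenic replicate 2 lay above the median of the 8 lungs in 9 of 9 genes, and wild-type replicate 2 in 1 of 9. Wild-type replicate 4 was above the median in 6 of 9 genes, as was transgenic replicate 1. The lowest value of each of the 9 genes was in a wild-type lung, 5 in replicate 3, 3 in replicate 2 and 1 in replicate 1, where Ncr1 is counted without its flagged spot on transgenic replicate 3. The share of all probes with this trait was not taken, and the count rests on the same values as the means above. Markers of other cells also differed between these lungs. The mean log2 ratio of 8 neutrophil markers was 0.83 in transgenic replicate 1 and 0.32 in wild-type replicate 4, against -1.65 to -0.65 in the remaining lungs. Wild-type replicate 3 was the lowest of the 8 lungs for the mean of the T cell markers (-0.28) and of the B cell markers (-0.48) and the highest for that of the lung markers (0.83). The part of these cells in the values of the 9 genes was not tested.

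Across lungs Prf1, Nkg7 and Klrd1 had r of 0.66 to 0.77 with each other, but no pair of the 36 passed after Benjamini-Hochberg adjustment. Eomes had r of -0.52 with Prf1, -0.48 with Nkg7 and -0.46 with Klrd1, and these changed with the lungs and slides used: without the lungs farthest from the median of the other gene they were -0.42, 0.32 and 0.03, and with slide means removed -0.08, -0.33 and 0.11. The median Pearson r of the 36 pairs was 0.16, and 25 were above 0. The median was 0.077 without wild-type replicate 2, 0.31 without wild-type replicate 1 and 0.24 without transgenic replicate 1. Prf1 and Nkg7 had r = 0.76 (exact permutation p = 0.0271, adjusted p = 0.289; Spearman rho = 0.79, exact permutation p = 0.0279), and r = 0.77 without the lungs farthest from the median of Prf1. With genotype means removed this r was 0.72, and it was 0.77 on scan day 1 and 0.85 on day 2, with 4 lungs each. Under the 9 other settings run, apart from leaving out single lungs, it was 0.64 to 0.78.

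Nkg7 and Klrd1 had r = 0.77 (exact permutation p = 0.0309, adjusted p = 0.289; rho = 0.76, exact permutation p = 0.0368), and wild-type replicate 3 bore on it, since r was 0.53 without that lung. This r was 0.38 with normexp fitted on all spots and 0.38 with feature outlier flags alone. Klrk1 and Eomes ran opposite, with r = -0.75 (exact permutation p = 0.0321, adjusted p = 0.289; rho = -0.71, exact permutation p = 0.0576). Their r was -0.67 without the lungs farthest from the median of Klrk1 and -0.80 with genotype means removed, but -0.52 with slide means removed and -0.48 with the sample channel alone. Ncr1 and Klrk1 had r = 0.80 over 7 lungs (exact permutation p = 0.0224, adjusted p = 0.289; rho = 0.96, exact permutation p = 0.00278, adjusted p = 0.10). That pair's r was 0.93 without the lungs farthest from the median of Ncr1 and 0.53 with slide means removed, and it turned negative with normexp fitted on all spots, with feature outlier flags alone and with the sample channel alone. On scan days 1 and 2 the r of Nkg7 and Klrd1 was 0.98 and 0.43, and that of Klrk1 and Eomes -0.97 and -0.44. The choice of these 4 pairs followed from their values.

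**Figure D4:**
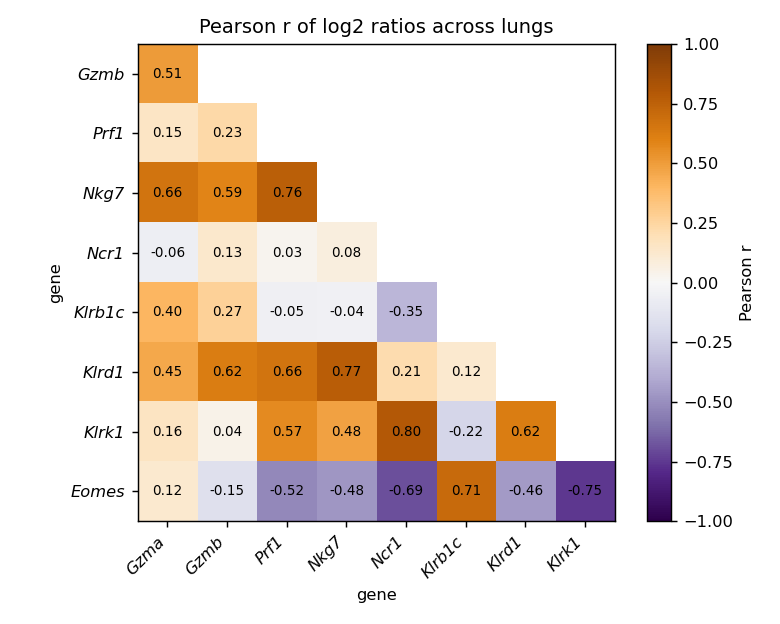
Pearson r between genes (both axes) of the log2 ratios over 8 lungs, 7 for pairs with Ncr1. Color and printed value give r. The row of Eomes is negative with Gzmb, Prf1, Nkg7, Ncr1, Klrd1 and Klrk1 and positive with Gzma and Klrb1c, and none of the 36 values passed adjustment.

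Against the reference pool 3 genes lay above and 2 below at an adjusted p under 0.05 by limma, where 29.5% of all tested probes lay above and 28% below. Klrb1c averaged 0.81 above the pool and was above it in 8 of 8 lungs, as 21.9% of probes were. Klrd1 averaged 0.74 below and Klrk1 0.36 below, each in 8 of 8 lungs, as 20.4% of probes were. The second Klrk1 probe had the opposite sign, with a mean of 0.09 above the pool and 5 of 8 lungs above it. Gzma averaged 0.41 and Ncr1 0.40 above the pool, though Gzma did not pass with feature outlier flags alone or with normexp fitted on all spots. Without wild-type replicate 3 the number above the pool was 5, Prf1 and Nkg7 being added. The pool holds the same lungs and the dyes were not swapped, and a pool of equal parts cannot lie above or below all of its own lungs in a gene's RNA, so these values are not read as levels. The part of dye and probe in them was not tested.

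In a list of 16 other granule and killing genes tested, 3 had higher and 13 lower means in transgenic lungs, where 50.4% of all tested probes had higher means. The median difference was -0.06, and 0 of the 16 had an unadjusted p under 0.05 by limma. Gzmg and Ctsc, the latter encoding the peptidase that activates granzymes, had the lowest unadjusted p-values of this list, at -0.24 (standard error 0.12, unadjusted p = 0.0611 by limma) and -0.35 (standard error 0.19, unadjusted p = 0.101 by limma). Ctsc had values in 3 of the 4 wild-type lungs. To be tested a probe had to be well above background on at least 4 arrays. The probes of Gzmd, Gzmk and Gzmn reached that level on 0 of 8 arrays and those of Gzmc and Gzmf on 1 array each, so that beside Gzma and Gzmb the granzymes tested were Gzme, Gzmg and Gzmm.

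Of 38 NK receptor genes tested, 24 had higher and 14 lower means, with a median of 0.06. S1pr5, the sphingosine phosphate receptor with which NK cells leave bone marrow and lymph nodes, differed by 0.24 (standard error 0.12, unadjusted p = 0.0802 by limma), and Cx3cr1, a fractalkine receptor of mature NK cells and monocytes, by 0.34 (standard error 0.18, unadjusted p = 0.0896 by limma). Il2rb, the interleukin receptor chain on which NK cells depend, differed by 0.14 (95% interval -0.38 to 0.66). Among 13 signaling adaptors 11 had higher and 2 lower means, with a median of 0.12. Lck, the kinase of T and NK cell receptors, differed by 0.37 (unadjusted p = 0.0667 by limma), Plcg2 by 0.25 (unadjusted p = 0.118 by limma), and Tyrobp, the adaptor DAP12, by 0.06 (95% interval -0.39 to 0.50).

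The transcription factors of the lineage had 8 higher and 4 lower means among 12 tested, with a median of 0.10. Nfil3, which NK cells need to develop and which many other cells express, was the only tested gene of the lists whose genotypes did not overlap. Its log2 ratio was -0.65, -0.71, -0.79 and -0.95 in wild-type and -1.42, -1.01, -1.05 and -1.48 in transgenic lungs, so that every transgenic lung lay below every wild-type lung, as for 1.98% of probes in either direction. The difference was -0.46 (standard error 0.13, unadjusted p = 0.00478, adjusted p = 1.00 by limma; exact two-sided permutation p = 0.0286, the smallest possible). A second Nfil3 probe gave -0.15 (95% interval -0.59 to 0.29). Irf8 differed by 0.30 (unadjusted p = 0.0346 by limma), and Tbx21, the T-box partner of Eomes, by -0.15 (95% interval -0.45 to 0.15).

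Among 21 ligands and growth cytokines, 14 had higher and 7 lower means, with a median of 0.04. Ccl4, a chemokine that activated NK cells release, differed by 0.35 (standard error 0.15, unadjusted p = 0.0392 by limma, with 3 transgenic lungs), but its probe was well above background on 2 of 4 wild-type and 4 of 4 transgenic arrays. Cd48, the ligand of the NK receptor CD244, differed by 0.25 (unadjusted p = 0.0662 by limma). In none of these lists did a gene pass an adjusted p of 0.05 by limma. With the slide as a block, 1 granule and killing gene, 0 NK receptors, 2 signaling adaptors, 4 transcription factors and 1 ligand or cytokine had an unadjusted p under 0.05, against 0, 0, 0, 3 and 1 without it. Over all probes the share was 3.72% with the block and 2.09% without. The lists, like the 9 genes, were chosen with earlier results of these data known.

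Markers of other lymphocytes were measured beside them. T cell markers had higher means in transgenic lungs for 10 and lower for 3 of 13 genes tested, with a median of 0.06 and a summed signal of 5761.5 to 7491 in wild-type and 6428 to 8519.5 in transgenic lungs. Cd3e differed by -0.05, Cd4 by -0.12 and Cd8a by 0.06, with 95% intervals that include 0. The B cell markers had higher means for 7 of 8 genes, with a median of 0.21 and a summed signal of 3129 to 4418 in wild-type and 3574 to 4427 in transgenic lungs. Ms4a1, which encodes CD20, differed by 0.63 (unadjusted p = 0.0298 by limma) and Fcrla by 0.34 (unadjusted p = 0.0293 by limma), each higher in the transgenic lung on 4 of 4 slides. A second Ms4a1 probe differed by 0.49 (unadjusted p = 0.0324 by limma) and was higher in the transgenic lung on 3 of 4 slides. With the slide as a block the number with an unadjusted p under 0.05 by limma was 4 of 8 B cell markers and 2 of 13 T cell markers, against 2 and 0 without it, where 3.72% and 2.09% of all probes were. The defining markers of both cell types were well above background in these lungs, and their part in the values of the 9 genes was not tested.

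**Figure D5:**
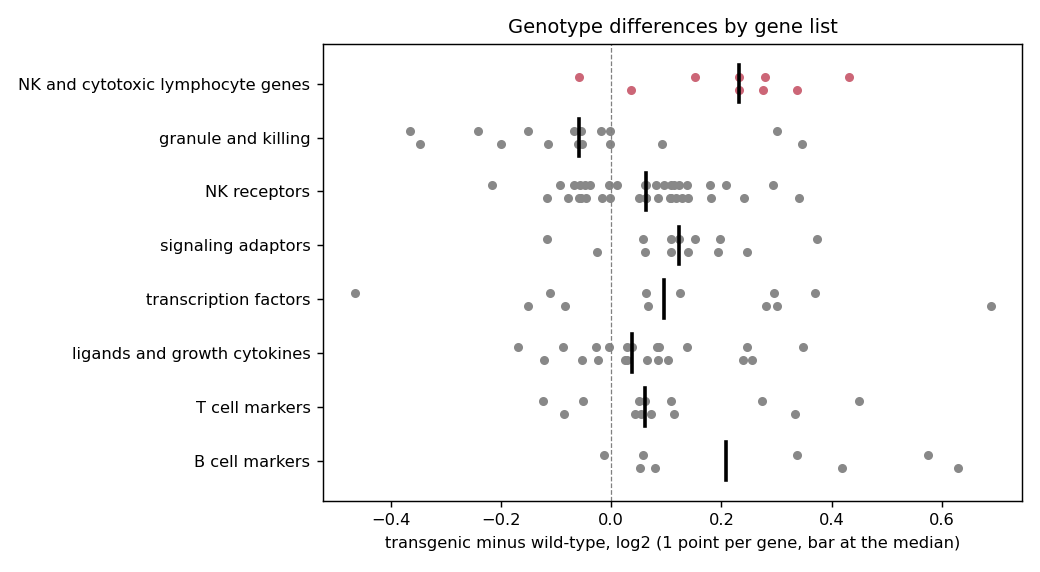
Transgenic minus wild-type difference in log2 ratio (horizontal axis) of each tested gene, 1 point per gene by its brightest probe, in the 9 genes and in 7 other gene lists (vertical axis), with a bar at each median. The median is 0.23 for the 9 genes, -0.06 for the other granule and killing genes and 0.21 for the B cell markers.

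Genes outside the 9 with the most similar profile over the 8 lungs were ranked by Pearson r with the mean of the standardized profiles of the 9, among 16028 genes. The first 10 were C230094B09Rik, Glis2, Rbak, Camkv, Dmap1, Chst14, Bcdin3d, Arsa, Stap1 and Grap2, with r of 0.96 to 0.92. Grap2 encodes an adaptor of T cell receptor signaling, and none of the 10 was on the lists of NK and cytotoxic genes. With 8 lungs and so many candidates, values of this size are a description of rank.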

How the data were processed

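Lungs of 4 wild-type and 4 transgenic mice, grouped by the sample labels, were profiled on 8 two-color Agilent arrays with 43379 spots for 41174 probes. For each array the authors deposited scanner output with raw and processed signal intensities and median local backgrounds, made per the file headers with Agilent Feature Extraction 10.10.1.1 (the submitters' processing notes name 11.0.1.1). A further deposited table gives log2 ratios, which for 39811 of 39811 probes with a single spot lay within 0.001 of the ratio of processed signals, and 0 of its columns of per-sample values were left unmapped. The methods name GeneSpring for the analysis and give no background correction.

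Median signals were background-corrected per array and channel with normexp (offset 50, fitted on spots without an outlier flag), normalized by loess within each array, and averaged over the spots of a probe, using limma 3.58.1, R 4.3.3 and the package data.table at version 1.17.8. Spots flagged for a non-uniform feature, a non-uniform background or as population outliers were left out. At first only the feature flags were used. The background flags were added after results of that version had been seen, to follow an earlier processing of these data whose share of excluded spots they matched. The change was not independent of the results, and the first version, called feature outlier flags alone, is kept as an alternative added after seeing the data. Since spots near the background are pulled together by the offset, differences of dim genes are understated. Tested were 32653 probes that the scanner software marked as well above background for Cy5 on 4 or more arrays, with at least 2 values per genotype, by limma's moderated test, two-sided, with Benjamini-Hochberg adjustment over all of them. For single genes the genotypes were permuted exactly. The fit was tested on simulated data, the outcome of which is not given here. Symbols came from the matrix for 33870 probes and by transcript accession from RefSeq (GRCm38.p6) for 933 more, and 6371 had none.

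Named were the 9 genes by every probe, Scgb3a2, 6 fixed markers (Cd3e, Cd8a, Cd4, Tbx21, Il2rb and Tyrobp), the 2 genes of each list with the lowest unadjusted p, any list gene that passed adjustment, and the 10 genes with the most similar profile. Lists covered granule and killing genes, NK receptors, signaling adaptors, transcription factors, ligands and growth cytokines, and markers of T cells, B cells, neutrophils, macrophages and dendritic cells, mast cells and basophils, red cells and lung. The 9 genes and the lists were chosen with earlier results of these data known. The promoters printed and the pairs of genes followed through the alternatives were chosen after their values had been seen. Alternatives changed the background correction, normalization, channel, filter, variance model, test, blocks and the choice among probes, took the deposited ratios, or omitted each lung, and leaving out slide 1 was added after seeing the data. A correlation counted as moved when it shifted by 0.2 or more. The labels do not say that replicate numbers pair the mice. The deviations of same-numbered lungs correlated at 0.32, 0.25, -0.08 and -0.21, which cannot decide it, since the first 2 pairs also shared a slide. Lungs on the same slide correlated at 0.32, 0.25, 0.30 and 0.08, the first 2 being also same-numbered. The fit with the slide as a block is given where it changes a count and for Gzmb, Klrb1c, Klrd1 and Eomes. Plots used matplotlib 3.10.9 under Python 3.11.15.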

Additional observations from a re-analysis of the deposited data

How the results depend on the processing

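Under every setting run 0 of the 9 genes and 0 of all probes passed an adjusted p of 0.05 for genotype by limma or by the methods' t-test, and 7 to 9 of the 9 genes had the higher mean in transgenic lungs. The number of the 9 genes with an unadjusted p under 0.05, 1 as reported, was 0 with normexp offset 0, Agilent processed signals, normexp fitted on all spots, the authors' matrix, median-centring, the sample channel alone, detection on all 8 arrays, flagged spots kept, trend and robust variance, the methods' t-test or feature flags alone, the rule for spots that was used first. It was 2 with array weights and 0 to 3 when a single lung was left out. Over all probes the number at an unadjusted p under 0.05, 684 as reported, was 391 with normexp fitted on all spots, 298 with the sample channel alone, 1151 with array weights, 1215 with the slide as a block, 408 with feature flags alone and 485 to 1170 with a single lung left out, being 1170 without wild-type replicate 4 and 1065 without transgenic replicate 1. With the replicate number as a block, although the labels do not say that it pairs the mice, 0 of the 9 genes and 885 of all probes had an unadjusted p under 0.05. In that fit 8 genes had the higher mean.

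The Ncr1 difference turned to 0.017 with array weights and to 0.0081 with feature flags alone, and ranged from -0.14 to 0.11 with a single lung left out. With a single lung left out Eomes ranged from -0.078 to 0.46 and Klrk1 from -0.021 to 0.093. Against the pool Eomes turned to -0.067 with Agilent processed signals, to -0.067 with the authors' matrix and to -0.19 without slide 1, where it passed below the pool (adjusted p = 0.0462 by limma) and made the number of genes below 3 in place of 2, and ranged from -0.079 to 0.16 with a single lung left out, while Gzmb ranged from -0.0051 to 0.10. The number of genes above the pool was 5 without slide 1, 2 with normexp fitted on all spots, 2 with feature flags alone and 3 to 5 with a single lung left out. The median r of the 36 pairs was 0.38 with Agilent processed signals and 0.38 with the authors' matrix, and the number of pairs past adjustment was 1 with normexp fitted on all spots, 1 with feature flags alone and 7 with the sample channel alone, where the pool is not divided out. The r of Ncr1 and Klrk1 turned to -0.44 with normexp fitted on all spots, to -0.37 with feature flags alone and to -0.023 with the sample channel alone. The causes of these changes were not tested.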

Other observations

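The remaining cell type lists moved in no common direction with genotype, and 0 of their genes passed an adjusted p of 0.05 by limma. Of 8 neutrophil markers 6 had higher and 2 lower means in transgenic lungs, with a wide spread: S100a9 differed by 1.04 (95% interval -1.08 to 3.17) and Ltf by -1.04 (95% interval -2.34 to 0.25). Of 9 macrophage and dendritic cell markers 5 were higher and 4 lower, Marco by 0.13 and Csf1r by -0.08 (95% intervals -0.30 to 0.56 and -0.37 to 0.21). Of 6 mast cell and basophil markers 1 was higher and 5 lower, with Fcer1a at -0.25 (unadjusted p = 0.102 by limma) and Tpsb2 at -0.12 (unadjusted p = 0.278 by limma). Of 6 red cell markers 3 were higher and 3 lower, with Hba-a1 at -0.51 over 3 transgenic lungs and Alas2 at 0.35 (unadjusted p = 0.103 and 0.232 by limma). Among 11 lung markers 4 were higher and 7 lower, the transgene Scgb3a2 being among the higher, and 2 in each direction had an unadjusted p under 0.05 by limma, as 2.09% of all probes did in either direction. Of the lower ones Sftpd, the gene of surfactant protein D, had a difference of -0.47 (unadjusted p = 0.0133 by limma). Among the T cell markers, Cd3d differed by 0.45 and Ccr7 by 0.33 (unadjusted p = 0.0900 and 0.127 by limma). The part of any of these cell types in the values of the 9 genes was not tested.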
